A study of Homo sapiens with 2 samples.

Results

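Intergenic CHD4 peaks near genes are the listed binding regions that lie between genes but within reach of a protein-coding gene. They were taken from a list of 60126 broad CHD4 peaks of the human melanoma line 501Mel. A peak belonged to the set if it lay on chromosomes 1 to 22 or X, was longer than 200 bp and shorter than 3000 bp, and had its centre in no annotated gene of any type. The centre also had to lie more than 1000 bp and at most 50000 bp from the nearest start of a protein-coding gene, and the peak had to miss the 1000 bp on either side of every annotated transcript start. Of 51450 peaks in the length range, 16309 had their centre outside genes, 7907 of these were at the required distance, and 7173 also missed every transcript start. These 7173 peaks are described here. Another 940 peaks met the rules on position but were too short, and 318 were too long.

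501Mel is an established human melanoma line, grown here in RPMI medium with foetal calf serum and not treated. Chromatin was fixed with 0.4% paraformaldehyde, and 1 CHD4 ChIP library and 1 input library were sequenced. With 1 library of each kind there was no replicate spread and no test between conditions, so every comparison is a description of this peak list. Peaks and genes are not replicates, and the 95% intervals cover counting error only.

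CHD4 is an ATPase that slides nucleosomes. It is a subunit of the NuRD complex, together with the deacetylases HDAC1 and HDAC2 and the MTA, MBD, GATAD2 and RBBP proteins, and NuRD is known to act at promoters and at distal elements, often to restrain them. Intergenic DNA around genes holds many enhancers, which are bound by lineage factors such as MITF and SOX10 in melanocytic cells and by signal-driven factors such as AP-1, as well as sites of CTCF, which anchors chromatin loops.

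The sequences of 6 of the peaks are given as examples. All were picked because they held a motif match, so they do not show what is typical of the set. They were read from hg19 (GRCh37) on the plus strand and cover the centre of each peak with 100 bp on either side, in intergenic sequence. The first pair were the peaks with the highest fold enrichment, the ratio of ChIP signal to local background that the peak caller gave, among those that carried a CTCF match and an AP-1 match (TGACTCA or TGAGTCA) at most 50 bp apart. Matches this close were found in 3 of the 188 peaks with a CTCF match. The capitals mark both matches. The peak named for *VPS33B*, a gene of vesicle sorting, lay 27466 bp upstream of that gene and had a fold enrichment of 3.09. It spanned chr15:91592986-91593613, and the bases shown are chr15:91593199-91593399. The peak named for *FOLR3*, a folate receptor gene, lay 29359 bp downstream of the gene start and had a fold enrichment of 2.90. This peak spanned chr11:71855099-71855450, and the bases shown are chr11:71855174-71855374.
VPS33B: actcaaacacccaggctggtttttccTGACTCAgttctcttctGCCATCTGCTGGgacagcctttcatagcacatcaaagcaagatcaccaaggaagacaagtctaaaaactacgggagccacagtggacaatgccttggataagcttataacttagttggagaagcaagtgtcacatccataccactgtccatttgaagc
FOLR3: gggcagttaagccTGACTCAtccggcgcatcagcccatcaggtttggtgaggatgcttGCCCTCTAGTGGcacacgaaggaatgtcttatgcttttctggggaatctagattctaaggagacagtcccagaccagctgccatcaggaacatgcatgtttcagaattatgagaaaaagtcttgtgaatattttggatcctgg

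The next pair came from the 10 peaks with the highest fold enrichment and carried an M-box, TCATGTG, in their central part. The rest of the 10 held no AP-1, CTCF, M-box or E-box match there. The M-box is a recognition sequence of MITF, the master regulator of melanocytes, and the capitals mark it on either strand. The peak at chr17:46120832-46121340, shown from 46120986 to 46121186, lay 4605 bp upstream of *NFE2L1* and had a fold enrichment of 5.70. This gene encodes a transcription factor of proteasome genes. The peak at chr17:66007080-66007397, shown from 66007138 to 66007338, lay 14653 bp upstream of *C17orf58* and had a fold enrichment of 5.57.
NFE2L1: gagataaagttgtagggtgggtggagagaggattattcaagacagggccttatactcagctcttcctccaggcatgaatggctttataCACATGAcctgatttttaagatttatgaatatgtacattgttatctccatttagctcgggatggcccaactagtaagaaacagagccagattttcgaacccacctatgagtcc
C17orf58: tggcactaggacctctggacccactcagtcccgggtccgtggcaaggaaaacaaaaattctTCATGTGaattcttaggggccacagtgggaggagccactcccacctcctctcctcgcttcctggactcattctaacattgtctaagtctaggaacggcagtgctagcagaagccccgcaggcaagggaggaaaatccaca

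The last pair were the 2 of the 5 *MITF* peaks that held an AP-1, CTCF, M-box or E-box match in this central part. They came from a search of the peaks of 8 pigment and neural crest genes for such matches, and they were not the strongest of those peaks. The search found 1 more, a *SNAI2* peak with an AP-1 match and a fold enrichment of 2.94, which is not shown. All remaining peaks of these genes held no such match in their central part, so the pair is an exception among them. The pair lay upstream of *MITF* and carried AP-1 matches, in capitals. The peak at chr3:69773504-69774734, shown from 69774019 to 69774219, lay 14488 bp from the gene start with a fold enrichment of 3.26. The peak at chr3:69744678-69745031, shown from 69744754 to 69744954, lay 43753 bp from the gene start with a fold enrichment of 2.57. A match of letters is a description of the sequence and does not show which factor was bound.
MITF near: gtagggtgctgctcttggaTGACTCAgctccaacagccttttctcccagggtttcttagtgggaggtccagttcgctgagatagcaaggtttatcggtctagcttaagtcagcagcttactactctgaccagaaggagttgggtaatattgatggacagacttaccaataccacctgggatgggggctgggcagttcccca
MITF far: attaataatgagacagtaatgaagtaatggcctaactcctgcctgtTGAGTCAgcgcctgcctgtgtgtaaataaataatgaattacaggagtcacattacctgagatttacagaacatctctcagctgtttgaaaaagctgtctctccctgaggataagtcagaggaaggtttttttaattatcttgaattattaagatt

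The 7173 peaks were mostly of moderate strength. Their median fold enrichment was 3.03, with quartiles of 2.83 and 3.33 and a range from 1.69 to 7.02. The median length was 617 bp, with quartiles of 398 and 1038 bp. The significance given by the peak caller was the q value, on the −log10 scale, and its median was 1.88 with a highest value of 15.8. In all, 3171 of the 7173 peaks (44.2%, 95% interval 43.1 to 45.4) had a q of at most 0.01, beside 44.9% of all 51450 listed peaks in the same length range. This share was near that background. The paper's reporting summary names a q setting of 0.01 for the peak call, but the list also holds peaks of higher q.

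Other classes of peaks had similar medians of fold enrichment, and those in genes or at transcript starts differed in the share with a low q. Intergenic peaks more than 50000 bp from a protein-coding gene start had a median fold enrichment of 3.04. Of these 6003 peaks, 43.5% (42.3 to 44.8) had a q of at most 0.01, an interval that overlaps that of the peaks near genes. The 26122 peaks centred in genes but off transcript starts had a median of 3.02, and 41.4% (40.8 to 42.0) had a q of at most 0.01. The 12152 peaks that touched the 1000 bp around a transcript start had a median of 3.15, and 53.4% (52.5 to 54.3) had a q of at most 0.01. A fold enrichment of at least 5 was rare in every class. It was reached by 21 of the 7173 peaks near genes, 17 of those far from genes, 68 of those in gene bodies and 83 of those at transcript starts.

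Values at the limits of the set were as follows. The shortest member, near *CCNE1*, had a fold enrichment of 3.73, and a peak near *LYZL6* that was left out at 200 bp, just below the limit, had 3.79. The member nearest to a gene start lay 1128 bp from *SCOC* and had a fold enrichment of 2.96. The farthest lay 49997 bp from *FOXK1* and had 3.05, and the first one beyond the limit lay 50002 bp from *OSTC* and had 2.66.

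Peaks were denser near genes than far from them. The territory in which a member could lie, sequenced intergenic bases at the required distances, came to 308.8 Mb after weighting by the peak lengths that could fit, and held 23.2 peaks per Mb (22.7 to 23.8). Gene bodies held 17.1 peaks per Mb, and intergenic sequence more than 50000 bp from a protein-coding start held 8.39. Base composition differs among these classes, and its part in this order was not tested.

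Over the territory as a whole, density was lower at greater distance from the gene start. It was 34.9 peaks per Mb (33.0 to 36.8) from 1000 to 5000 bp, 26.6 from 5000 to 10000 bp, 22.7 from 10000 to 20000 bp and 19.7 (18.96 to 20.4) from 20000 to 50000 bp. The nearest interval therefore held 1.77 times (1.66 to 1.89) the density of the farthest. Because the far interval is long, it still held 2954 of the 7173 peaks (41.2%). Fold enrichment was similar throughout, with medians of 3.04 in the nearest interval and 3.03 in the farthest.

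GC content moved with distance too. The median GC of the peaks was 46.0% in the nearest interval and 44.4% in the farthest. Among sequences of similar GC content, density was again lower at greater distance. In windows of under 40% GC there were 118 peaks per 10000 peak-free windows from 1000 to 5000 bp and 64.6 from 20000 to 50000 bp. In windows of 50% GC or more these values were 247 and 153.

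The state of the nearest gene start went with a larger difference than distance did. Around genes whose start had a listed CHD4 peak within 1000 bp, the territory held 43.2 peaks per Mb (41.8 to 44.6). Around genes without one it held 15.9 (15.4 to 16.4), so that the ratio was 2.71 (2.59 to 2.84). The ratio was 2.39 (2.22 to 2.57) when only territory 20000 to 50000 bp away was counted. Upstream of starts without a peak, density went from 23.8 per Mb in the nearest interval to 14.1 in the farthest, and upstream of starts with a peak from 62.4 to 36.1. Downstream of starts with a peak density went from 94.3 (64.9 to 132) to 30.7 (27.4 to 34.3). The decline was not seen downstream of starts without a peak, with 13.8 per Mb (9.74 to 19.1) in the nearest interval and 15.5 (14.2 to 16.9) in the farthest. Downstream of all genes these values were 23.1 (18.0 to 29.2) and 19.1 (17.8 to 20.5).

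**Figure D1:**
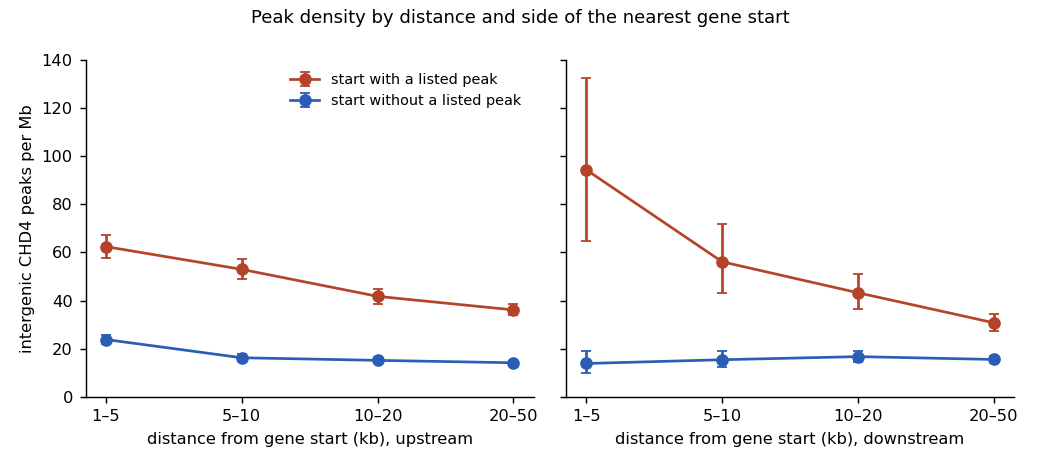
Intergenic CHD4 peaks per Mb of territory by distance from the nearest protein-coding gene start, upstream on the left and downstream on the right, for starts with and without a listed peak within 1000 bp. Points are densities and bars exact Poisson 95% intervals; the red points, between 30.7 and 94.3 per Mb, lie above the blue points, between 13.8 and 23.8, at every distance.

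Peaks lay on both sides of genes. There were 5777 upstream of the nearest start and 1396 downstream, that is beyond the end of the gene, but the upstream territory was also larger, at 239.9 against 68.9 Mb. The densities were 24.1 peaks per Mb upstream and 20.3 downstream, a ratio of 1.19 (1.12 to 1.26). From 20000 to 50000 bp the ratio was 1.04 (0.960 to 1.13), and its interval includes equality. By the orientation of the neighbouring protein-coding genes, density was 24.0 peaks per Mb (23.1 to 25.003) between divergent genes, 23.2 (22.5 to 24.0) between genes in the same direction and 21.1 (19.7 to 22.6) between convergent genes.

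Genes with intergenic peaks more often had CHD4 at their start. At least 1 of the peaks had as its nearest gene 3834 of the 13944 protein-coding genes with any territory (27.5%). Of these 3834 genes, 1777 (46.3%, 44.8 to 47.9) had a listed peak within 1000 bp of the start, beside 32.3% of all genes with territory and 26.9% (26.0 to 27.8) of the 10110 genes without an intergenic peak. The share was higher for genes with more peaks, from 42.9% of the 2198 genes with 1 peak to 55.8% (51.1 to 60.4) of the 434 genes with 4 or more. Genes with more peaks also had more territory, with a median of 43.1 kb at 4 or more and 13.2 kb at none. Among genes with 10 to 40 kb of territory the shares were 23.6% with none and 59.1% with 4 or more, a comparison chosen after seeing the data.

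**Figure D2:**
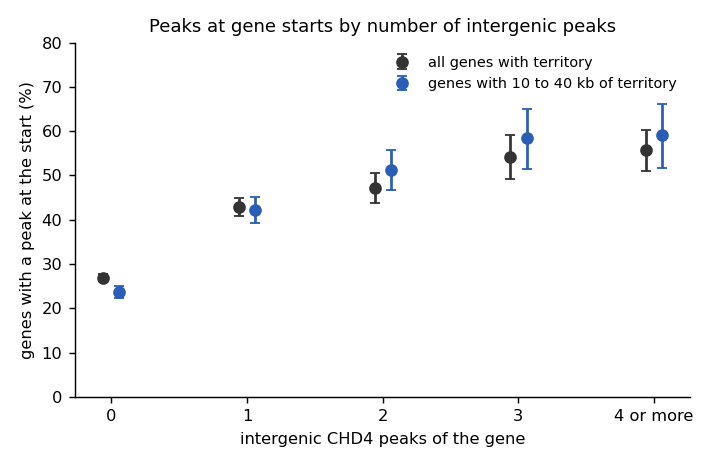
Percentage of protein-coding genes with a listed CHD4 peak within 1000 bp of their start, by the number of intergenic peaks for which each is the nearest gene. Black points are all genes with territory and blue points those with 10 to 40 kb of it, with Wilson 95% intervals; the black points go from 26.9% to 55.8%.

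Many peaks had another one nearby. Of 7173 peaks, 4055 (56.5%, 55.4 to 57.7) had another member centred within 10000 bp, and 1635 (22.8%) had some listed peak within 1000 bp of an edge. The first share depended on the peak limit, with 37.4% among the peaks at a −log10 q of at least 2 and 17.4% at 3 or higher, and no expected share was computed. Joining members whose centres lay within 10000 bp of the next gave 4560 groups, of which 3118 held a single peak and 282 held 4 or more. Since peaks of a group may be parts of 1 wider bound region, they are not independent.

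The 3 largest groups spanned long stretches of DNA. The first held 16 peaks in 46316 bp upstream of *MYOZ2*, which encodes a protein of the muscle Z-disc, and its highest fold enrichment was 4.54. The second also held 16 peaks, in 66366 bp between *B4GALT5*, a glycosyltransferase gene, and *SLC9A8*, a sodium-proton exchanger gene, with a highest value of 4.04. The third held 13 peaks in 46239 bp next to *STEAP1B* and *TOMM7*, which encodes a subunit of the mitochondrial import channel, and reached 3.39.

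*MYOZ2* was the nearest gene of the most peaks. All 16 lay upstream, between 3704 and 48796 bp from the start. Of these, 9 had a q of at most 0.01, beside 44.2% of all 7173 peaks. *DDIT4*, a stress-induced inhibitor of mTORC1, had 13 peaks on both sides of the gene, with 8 upstream, a median fold enrichment of 3.29 and 9 with a q of at most 0.01. The immediate early gene *IER5* had 11 peaks, of which the strongest, 47869 bp downstream of its start, had a fold enrichment of 4.04. *BCL2A1*, an anti-apoptotic gene of the BCL2 family that MITF is known to activate in melanoma, also had 11, with 6 beyond its end and 5 upstream, and no listed peak at its start. *PRSS16*, which encodes a thymic protease, and *TOMM7* tied with 10 each. Of these 6 genes, *BCL2A1* alone lacked a listed peak at the start. Such a peak was present at 55.8% of genes with 4 or more intergenic peaks and 32.3% of all genes with territory.

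**Figure D3:**
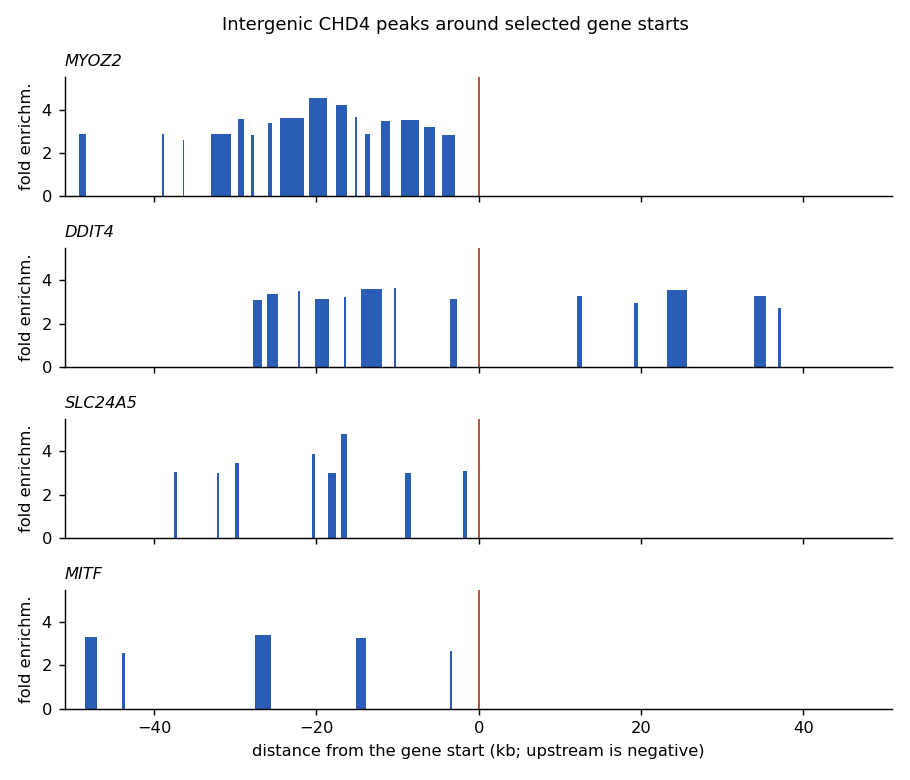
Positions of the intergenic CHD4 peaks around the starts of *MYOZ2*, *DDIT4*, *SLC24A5* and *MITF*, with distance from the gene start in kb on the horizontal axis and the authors' fold enrichment on the vertical axis. Each bar is 1 peak drawn to its length; the 16 bars of *MYOZ2* and the 8 of *SLC24A5* all lie upstream.

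The 10 strongest peaks stood near genes of varied function. The highest fold enrichment, 7.02 with a −log10 q of 13.0, belonged to a peak at chr17:21183571-21184077, 4160 bp upstream of *MAP2K3*, which encodes an activating kinase of p38. Its window held both an E-box and an M-box. The second, at 6.86, lay at chr21:37792487-37792796 beyond the end of *CHAF1B*, a subunit gene of the histone chaperone CAF-1. The third, at 6.59, lay at chr4:38754947-38756325 beyond the end of *TLR10*, which encodes a Toll-like receptor.

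A peak at chr5:983710-984175, upstream of the Wnt inhibitor gene *NKD2*, had a fold enrichment of 6.55 and the highest −log10 q of the set, 15.8. A peak 48179 bp upstream of *PLPP1*, a lipid phosphatase gene, had 6.14 and a low GC content of 33.6%. Next to those of *NFE2L1* and *C17orf58* shown above, the others were near *TCTN1*, a gene of the ciliary transition zone, with 5.70, *SRRM3*, a neuronal splicing regulator, with 5.62, and *FTMT*, mitochondrial ferritin, with 5.45. Of the 10 nearest genes, *NKD2*, *PLPP1* and *TCTN1* had a listed peak at the start. The share was 46.3% over genes with at least 1 intergenic peak and 32.3% over all genes with territory.

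Genes were then read by lists, beside the 27.5% of all genes with territory that had at least 1 peak and the 23.2 peaks per Mb of all territory. Both values are needed, because a gene with more territory can hold more peaks. The lists are described by counts and densities without a test.

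Counting all listed peaks, pigment genes had the highest density of the 11 lists. Of 13 pigment genes with territory, 9 (69.2%, 42.4 to 87.3) had at least 1 peak, and their territory held 33 peaks, or 71.2 per Mb (49.01 to 99.99). This interval overlaps those of several other lists. Without *SLC24A5*, the gene with the most, the density was 60.3 per Mb. *SLC24A5*, which encodes a cation exchanger of pigment cells, had 8 peaks, all upstream, with fold enrichments from 2.98 to 4.79. *OCA2*, which encodes a melanosomal membrane protein, had 1 with 3.99, and the melanosomal enzyme gene *TYRP1* had 5 upstream with values up to 3.37. *KIT*, the receptor of stem cell factor, had 5 upstream with values up to 3.26. *TYR*, the gene of tyrosinase, had 6, though none with a q of at most 0.01, which 44.2% of all the peaks had. It was singled out after its values were seen. At a q of at most 0.01 the list held 13 peaks, 28.0 per Mb beside 10.3 over all territory. By that count NuRD genes were higher, with 5 peaks and 52.2 per Mb, and ribosomal protein and MAPK genes had 27.6 and 25.2.

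Neural crest transcription factor genes showed few genes with many peaks. Of 15 with territory, 6 had a peak (40%), and together they held 28, or 43.0 per Mb (28.5 to 62.1). *SNAI2*, a repressor of the epithelial program, had 8 peaks with a highest fold enrichment of 4.71. Its relative *SNAI1* also had 8, on both sides, with a highest value of 3.74. *TFAP2A*, a regulator of neural crest and melanocytes, had 4 with a highest value of 3.81. *MITF* had 5, all upstream, of which 3 had a q of at most 0.01, beside 44.2% of all the peaks. The motif windows of 4 of the 5 *MITF* peaks held an AP-1 match, as did those of 3 of 8 at *SNAI2*, 1 of 8 at *SNAI1* and 0 of 4 at *TFAP2A*, beside 11.8% of all the peaks and 7.74% of windows of the territory.

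Genes driven by MAPK signalling, which is active in most melanomas, were often near a peak. Of 18 such genes with territory, 13 (72.2%, 49.1 to 87.5) had at least 1, and the density was 52.2 per Mb (35.4 to 74.0). The feedback inhibitor gene *SPRY1* had the strongest peak, with a fold enrichment of 3.97. The transcription factor gene *EGR1* had 1 peak with 3.45. The inhibitor *SPRY4* had 3 with values up to 3.41, and the phosphatase gene *DUSP6* had 2 with values up to 3.43. *PHLDA1* had the most, with 9 peaks and a highest value of 3.20, and without it the density was 39.9 per Mb.

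The AP-1 subunit genes held 33.8 peaks per Mb (18.9 to 55.7), with a peak near 6 of 13. *JUND* led with 5 peaks in 17.5 kb of territory and a highest fold enrichment of 4.59, and without it the density was 23.4 per Mb. *FOS* had 2 peaks up to 3.42 and *FOSL2* had 1 with 3.31. Genes of the TGF-beta and BMP response held 34.2 peaks per Mb (21.9 to 50.9), with a peak near 9 of 15. The inhibitor of differentiation *ID1* had 4 up to 3.73 and *ID4* had 3 up to 3.33. The pseudoreceptor gene *BAMBI* had 5 up to 3.51, and *FST*, which encodes follistatin, had 4 up to 3.42. The intervals of both lists include the density of all territory.

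The lists of NuRD subunits and of peptidylarginine deiminases were small. Of 6 NuRD genes with territory, *GATAD2A* had 4 peaks up to 4.33 and *RBBP7* had 2 up to 3.42, and the density of 62.7 per Mb had a wide interval of 23 to 136. Without *GATAD2A* it was 28.5. Of the 5 deiminase genes, whose products turn arginine into citrulline, *PADI2* alone had peaks, with 2 upstream at 9461 and 15560 bp and fold enrichments of 3.07 and 3.15. Intergenic peaks were not listed for the territory of the other 4 genes of the family. The set leaves out peaks inside genes, and the paper reports CHD4 at an element within an intron of *PADI1*.

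Genes of the invasive, less pigmented melanoma state held fewer peaks than the pigment genes. Of 16 with territory, 5 (31.2%, 14.2 to 55.6) had at least 1, with 8 peaks in all and a density of 16.3 per Mb (7.05 to 32.2). The intervals of the share and of the density include the values of all genes. Among them were *FN1* with fold enrichments up to 3.27, *TGFBI* up to 3.15, *CCN1* up to 2.89 and *SPARC* with 2.81. Olfactory receptor genes, which are silent in most tissues, held 5.93 peaks per Mb (4.27 to 8.02), with a peak near 29 of 312 (9.29%). The highest values among them were 4.41 at *OR2V2* and 4.22 at *OR2S2*, followed by 4.05 at *OR5M8* and 4.03 at *OR6C6*. Keratin genes of epithelia held 4.61 per Mb (0.950 to 13.5), with 3 peaks near *KRT17* and *KRT20*. Ribosomal protein genes, which are active in every growing cell, held 50.1 per Mb (35.8 to 68.3), with a peak near 23 of 54 (42.6%), and *RPS20*, *RPL29*, *RPL37* and *RPL19* had the strongest, at 4.71, 4.37, 4.13 and 3.68.

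**Figure D4:**
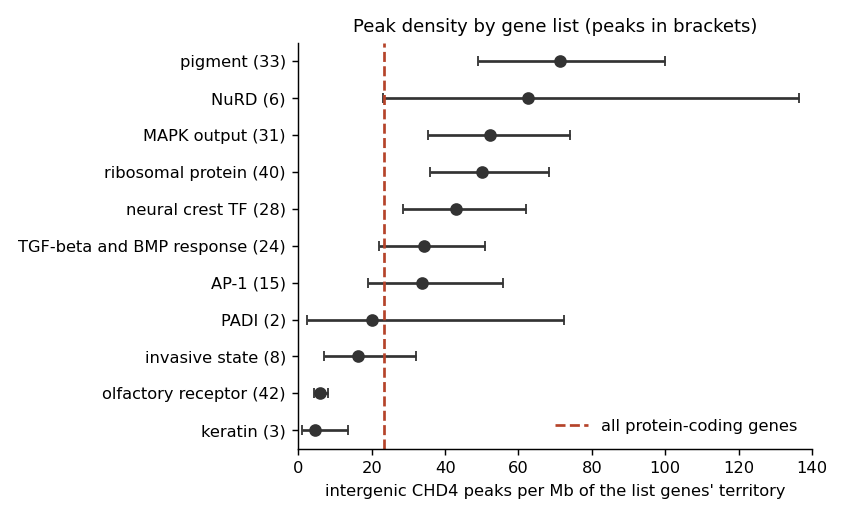
Intergenic CHD4 peaks per Mb of the territory of each gene list, with exact Poisson 95% intervals and the number of peaks in brackets. The dashed line is the 23.2 per Mb of all protein-coding genes; pigment genes lie at 71.2 and keratin genes at 4.61.

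The share of genes with CHD4 at the start differed among the lists and was mostly higher in those of high density. A listed peak lay within 1000 bp of the start of 53.8% of the pigment genes with territory, 55.6% of the MAPK output genes and 57.4% of the ribosomal protein genes, beside 18.8% of the invasive state genes, 1.60% of the olfactory receptor genes and 32.3% of all. NuRD genes had 83.3%, keratin genes 4.08% and deiminase genes 0%. AP-1 genes had 61.5% and genes of the TGF-beta and BMP response 33.3%, at similar densities. Neural crest factors had 26.7%, and their *SNAI1* and *TFAP2A* had 12 intergenic peaks together and none at the start.

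Genes that lost expression after CHD4 silencing, taken from the study by symbol, were near the background. Of 218 with territory, 68 (31.2%, 25.4 to 37.6) had at least 1 intergenic peak, and their density was 26.7 per Mb (22.3 to 31.8). Of the symbols of genes that gained expression, 74.3% matched the annotation, below the 80% required, so that this comparison was void.

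The peaks were slightly richer in GC than the territory. The 500 bp around the centre had a median GC content of 45.2% with quartiles of 40.4 and 50.2%, beside 42.6% with quartiles of 37.2 and 47.6% in 600567 windows of the same length, which were all windows of the territory that touched no listed peak. Sequence of under 35% GC made up 16.1% of windows and 7.32% of peaks. Sequence of 60% GC or more made up 2.05% of windows and 4.73% of peaks. Peaks far from genes and in gene bodies had lower medians, 41.0 and 41.8%, and peaks at transcript starts had 50.4%.

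CTCF matches stood out among the 12 motifs counted, on both strands, in these windows. The CTCF consensus was found in 188 peaks (2.62%, 2.28 to 3.02) and in 0.234% of the territory windows, a ratio of 11.2 (9.65 to 13.0). With the windows weighted to the GC classes of the peaks the ratio was 8.86. In the 1047 peaks whose q lay at 3 or higher on the −log10 scale, 4.20% (3.15 to 5.59) held a match. The shares in other classes were 1.10% (0.865 to 1.40) far from genes, 1.17% (1.05 to 1.31) in gene bodies and 1.43% (1.24 to 1.66) at transcript starts. These intervals do not overlap that of the peaks near genes, but no test with replicates was possible. The shares of the classes were not weighted for GC content, which differs among them, and its part in this difference was not tested.

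AP-1 matches were more common but less concentrated. TGACTCA or TGAGTCA was present in 847 peaks (11.8%, 11.1 to 12.6) and in 7.74% of the windows, a ratio of 1.53 (1.43 to 1.63), or 1.48 with GC classes weighted. The share was 11.4% far from genes and 11.4% in gene bodies, and 8.93% at transcript starts. AP-1 and CTCF matches shared a window in 14 of the 188 peaks with CTCF (7.45%, 4.49 to 12.1), and in 3 of these they lay at most 50 bp apart. Those were the *VPS33B* and *FOLR3* peaks shown above, with 10 and 38 bp between the matches, and a peak 8425 bp upstream of *GRM4*, a glutamate receptor gene, with 18 bp.

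The recognition sequences of MITF were moderately more frequent in the peaks. The M-box TCATGTG was found in 10.6% (9.88 to 11.3) of peaks and 7.54% of windows, a ratio of 1.40 (1.31 to 1.5), and the E-box CACGTG in 8.09% and 4.82%, a ratio of 1.68 (1.55 to 1.82). With GC classes weighted these ratios were 1.49 and 1.44. Unlike CTCF, the M-box was more frequent in peaks far from genes (13.2%, 12.4 to 14.1) and in gene bodies (12.2%) than in peaks near genes. The E-box went the other way, with 7.06% (6.44 to 7.74) far from genes and 7.14% (6.83 to 7.45) in gene bodies. Its interval near genes was 7.48 to 8.74, which overlaps that of peaks far from genes. The SOX motif, AACAAAG or AACAATG, was found in 20.5% of peaks and 21.1% of windows, a ratio of 0.974 (0.931 to 1.02), or 1.10 with GC classes weighted, and in 27.1% of peaks far from genes.

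The excess of GC-rich motifs was smaller once GC content was taken into account. The GC box GGGCGG was present in 12.1% of peaks and 7.73% of windows, with a ratio of 1.57 that became 1.13 with GC classes weighted. TFAP2 (GCCNNNGGC), which regulates melanocyte genes, went from 1.57 to 1.17 in the same way, and ETS (CCGGAAG) from 2.104 to 1.635. The CRE TGACGTCA was rare, with 35 peaks and a ratio of 2.67 (1.91 to 3.74), or 2.33 with GC classes weighted. Matches of TEAD factors (ACATTCC), RUNX factors (TGTGGTT) and GATA factors (AGATAAG) had ratios of 1.09, 0.993 and 1.06, or 1.14, 1.06 and 1.17 with GC classes weighted. No motif of the 12 contains another, but matches of different motifs can share bases.

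**Figure D5:**
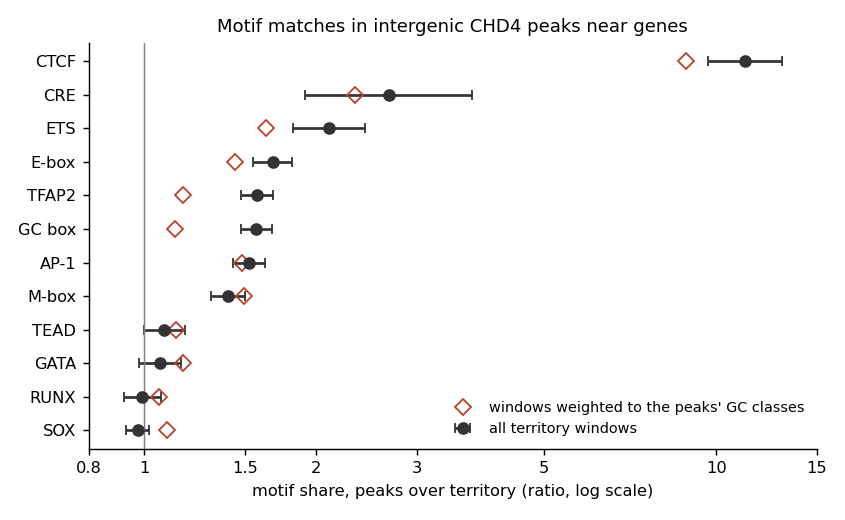
Share of intergenic CHD4 peaks near genes with each motif divided by the share of peak-free territory windows of 500 bp, on a log axis. Black points use all windows, with 95% intervals for counting error, and red diamonds weight the windows to the GC classes of the peaks; CTCF lies at 11.2 and 8.86, and SOX at 0.974 and 1.10.

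Peaks with a CTCF match had a median fold enrichment of 3.12 beside 3.03 without. A q of at most 0.01 was found for 51.6% (44.5 to 58.6) beside 44.01% (42.8 to 45.2), and the intervals overlap. Medians were higher with CRE, ETS and GC box matches, at 3.21, 3.13 and 3.13. For AP-1 the medians were 3.04 and 3.03. Peaks with an M-box had a median of 3.05 beside 3.03 without. Of those with an M-box, 47.1% (43.6 to 50.7) had a q of at most 0.01, beside 43.9% (42.7 to 45.1) of those without. These intervals overlap. Of the 12 motifs, GC box and TFAP2 had intervals of this share that did not overlap. They were 52.7% (49.4 to 56.0) with a GC box beside 43.0% (41.8 to 44.3) without, and 48.6% (45.3 to 52.0) with a TFAP2 match beside 43.6% (42.4 to 44.8).

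Chromosomes differed in density. Chromosome 22 held 46.5 peaks per Mb of territory (40.7 to 52.9), followed by chromosome 19 with 36.9 and chromosome 17 with 36.1. The lowest values were 4.94 (4.07 to 5.95) on chromosome X and 11.2 (8.86 to 14.1) on chromosome 18. The fold enrichment of the peaks ran the other way on several of them, with medians of 2.88 on chromosome 22, 3.17 on X and 3.18 on 18. Over the 23 chromosomes, which share 1 pair of libraries, the Spearman rho between density and median fold enrichment was -0.66. Intergenic sequence far from genes was also poor in peaks on chromosome X, with 1.82 per Mb. Chromosomes 22, 19 and 17 held 8.87, 7.32 and 11.4 per Mb there, beside 8.39 over all chromosomes. The Spearman rho between the densities near and far from genes was 0.66 over the 23 chromosomes.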

How the data were processed

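CHD4 ChIP DNA and input DNA from fixed 501Mel chromatin were sequenced as 1 library each. The submitters' processing notes name bcl2fastq 2.17.1.14, Bowtie 1.0.0, MACS2 2.1.1.20160309 and the build hg19. The authors kept uniquely aligned reads and called broad peaks. The paper's reporting summary names a q setting of 0.01, which 44.9% of the listed peaks in the length range met. The reason for this gap was not tested. Whether the input served as the control for peak calling is stated neither in the paper nor in the labels. The labels and the paper's methods name different library kits. The deposited list gives for each peak the authors' fold enrichment, a ratio, and the authors' q on the −log10 scale, both used as deposited. It holds no read counts, and the depth of each library was not analysed here.

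Positions count from 1. Genes came from GENCODE release 44 in its GRCh37 version, and bases from the GRCh37 genome. The nearest gene was the protein-coding gene with the nearest start. Each base of the territory was weighted by the share of listed peak lengths that could be centred there without touching the 1000 bp around a transcript start. Densities have exact Poisson intervals, shares Wilson intervals at 95%, and ratios intervals on the log scale. Motifs were counted in the 500 bp around each centre. The functions were tested on simulated data. The members and lists were chosen with earlier results of these data known.

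Named genes are those nearest to the 10 peaks of highest fold enrichment, the 5 genes with the most peaks, with ties, the 3 largest groups, up to 4 genes of each list with the highest fold enrichment, and genes next to paired CTCF and AP-1 matches. Genes at the limits of the set were named to give those values. Exceptions singled out after their values were seen are *TYR*, *PHLDA1* and *SPARC*. Alternatives were a stricter q, merged peaks, shorter distances, fewer gene types, other windows and other definitions of a promoter peak. Symbols of genes changed by CHD4 silencing were matched through the annotation and RefSeq synonyms. Python 3.11.15, numpy 2.4.6, pandas 2.3.3, scipy 1.17.1 and matplotlib 3.10.9 were used.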

Additional observations from a re-analysis of the deposited data

How the results depend on the processing

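Many values moved under the alternatives run. At a −log10 q of at least 2 there were 3171 peaks, with a median fold enrichment of 3.38, a median GC content of 45.8%, 37.4% within 10000 bp of another and a CTCF ratio of 13.1. At a −log10 q of at least 3 these values were 1047, 3.80, 46.4%, 17.4% and 18.0. The share of genes with members that had a promoter peak was 31.5% and 12.4% at these limits, with 18.0% and 7.80% for genes without members. It was 49.6% within 25000 bp, 39.7% with 500 bp around the start and 39.8% when the peak centre had to lie inside. Merging peaks within 1000 bp gave a density ratio of 1.62 between the nearest and farthest intervals and 44.8% of peaks within 10000 bp of another. That ratio was 1.66 without chromosomes 19 and X. The share of peaks near another was 54.2% with a distance limit of 25000 bp, 42.6% within 5000 bp and 69.7% within 25000 bp. Peaks of 400 to 800 bp had a median fold enrichment of 2.97, and a 200-bp window gave a CTCF ratio of 17.7.

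Alternatives chosen after seeing the data gave a near-to-far ratio of 1.57 with unweighted territory and also 1.57 for genes without a promoter peak, and an upstream-to-downstream ratio of 1.04 from 20000 to 50000 bp. Stricter lists hold fewer peaks by construction, and the cause of the other shifts was not tested. Of the other settings, 22 gave a value within the interval of the main value (for the number of peaks, within 1.5 times of it) and 23 did not. The AP-1 ratio lay between 1.504 and 1.595 with other q limits, a 200-bp window or flanks as background, and was 1.48 with windows weighted to the GC classes of the peaks. With that weighting the SOX ratio went from 0.974 to 1.10 and the RUNX ratio from 0.993 to 1.06, both across 1. The comparison of genes that gained expression after CHD4 silencing was void, and the gene lists rest on small numbers. With 1 ChIP library, reproducibility between libraries is not known. No paired analysis was possible because there are no replicates.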
